A study of Rattus norvegicus with 36 samples.

Results

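Cd68, Csf1r, Cd163, Mrc1, Aif1, Adgre1, Itgax and the 3 chains of complement C1q (C1qa, C1qb, C1qc) were examined in the ileum and colon of diabetic and nondiabetic rats. These 10 transcripts were picked by gene symbol, with earlier results of these data known, and the rule itself uses no measured value. A row of the count table carried the symbol of 9 of them, out of 24773 rows in all, and Itgax, an integrin chain of dendritic cells and macrophages, was not analysed here. All 9 passed the filter on low counts in both tissues.

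Macrophages of the gut wall are replaced in large part by monocytes from blood, and their survival rests on signalling through Csf1r, the receptor for CSF1 and IL-34. They engulf dying cells and bacteria, and are one of the main sources of C1q, the recognition molecule of the classical complement pathway, which is built from A, B and C chains encoded by C1qa, C1qb and C1qc. Cd68 encodes a lysosomal glycoprotein, Aif1 the actin-binding protein IBA1, and Adgre1 the receptor known in mouse as F4/80. Cd163, the scavenger receptor for haemoglobin and haptoglobin, and Mrc1, the mannose receptor CD206, mark tissue macrophages found along vessels and in deeper layers of the wall.

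The rats were male UCD-T2DM rats, a line that becomes diabetic spontaneously and has no genetically similar control strain. Nondiabetic rats (ND, also PD in the labels) were 70 days old, with a fasting glucose of 85.6 to 101.6 mg/dl. D1M rats (RD in some labels) were 168 to 172 days old and had been diabetic for 22 to 23 days, with 93.6 to 178.6 mg/dl. D3M rats (LD in some labels) were 172 to 173 days old and had been diabetic for 88 to 116 days, with 165 to 330.6 mg/dl. Each stage had 6 rats, and 1 whole-wall section of distal ileum and 1 of proximal colon were sequenced from each rat, giving 36 libraries. Age and diabetes cannot be told apart in a comparison with ND, whereas D1M and D3M rats were of nearly equal age. In whole tissue, fewer macrophages and less RNA of a transcript per macrophage cannot be told apart.

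Ileum libraries held 12279059 to 21510043 counts and colon libraries 10024041 to 18299050. In ND rat K4028 the colon library carried 8193 CPM (reads scaled to library size, on 1 scale for all 36 libraries) of Fabp6, the ileal bile acid-binding protein, against at most 19.9 CPM in any other colon library. In ND rat K4040 the ileum library carried 3864 CPM of Car1, a colonocyte carbonic anhydrase, against at most 1495 CPM in the other ileum libraries. Genes of B cells and lymphoid follicles split the libraries: 5 colon and 6 ileum libraries had a mean log2 CPM of the list above 3, and the others stood at or below 1.57 in colon and 1.13 in ileum. Of those follicle-rich libraries, 2 were ND, 1 D1M and 2 D3M in colon, and 3 were ND, 2 D1M and 1 D3M in ileum. Stages and tissues were compared with edgeR quasi-likelihood fits over all transcripts that passed the filter, with flow cell as a covariate. Flow cell here is the batch read from the prefix F1, F2 or F3 of the library names. A transcript was called at a Benjamini-Hochberg adjusted p (FDR) below 0.05.

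The 3 C1q genes lie side by side on the minus strand of chromosome 5 (rn6), from 155246447 to 155264143, a span of 17697 bp that holds no other annotated gene. C1qb comes first (chr5:155246447-155252003), then C1qc (chr5:155255005-155258392) and C1qa (chr5:155261250-155264143). The other members are spread over the genome: Csf1r on chromosome 18, Cd68 on 10, Aif1 on 20, Cd163 on 4, Mrc1 on 17 and Adgre1 on 9. RefSeq promoters on the GRCr8 build, here the 250 bases before the start of the gene, were at hand for 8 of the 10 symbols, Itgax included. The promoters of C1qa and C1qb are shown because the transcripts of this cluster moved together across libraries. They are printed 5′ to 3′ on the strand of the gene, and capitals mark GGAAGT, the core bound by ETS factors such as the macrophage regulator PU.1, and TGCTGA, a half-site bound by MAF factors, each searched on both strands (the reverse complements are ACTTCC and TCAGCA).

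C1qa, chr5:154419934-154420183 (GRCr8, minus strand): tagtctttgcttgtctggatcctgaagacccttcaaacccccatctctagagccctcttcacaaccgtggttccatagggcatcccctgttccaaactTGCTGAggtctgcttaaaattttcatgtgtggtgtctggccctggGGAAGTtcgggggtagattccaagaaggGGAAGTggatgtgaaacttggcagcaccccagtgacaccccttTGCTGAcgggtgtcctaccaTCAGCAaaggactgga
C1qb, chr5:154407828-154408077 (GRCr8, minus strand): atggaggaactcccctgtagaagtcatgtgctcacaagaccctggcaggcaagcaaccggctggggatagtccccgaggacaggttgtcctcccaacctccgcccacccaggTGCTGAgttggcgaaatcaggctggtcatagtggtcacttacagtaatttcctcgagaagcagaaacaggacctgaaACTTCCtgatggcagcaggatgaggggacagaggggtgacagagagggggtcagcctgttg

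The C1qa promoter held 2 ETS cores and 3 MAF half-sites, and the C1qb promoter 1 of each. Over the 8 promoters, 5 held the ETS core and 4 the MAF half-site, whereas 19.2% and 15.1% of all 33469 rat promoters of this length held them. The Csf1r and Cd163 promoters held neither sequence in this window. The motifs do not overlap each other in the printed sequences, and a match describes the letters only.

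The first question was whether the transcripts of macrophages and C1q differed between D3M and ND rats in the ileum, the tissue in which 12.5% of all 13026 transcripts tested were called. None of the 9 members was called in this comparison, by edgeR, DESeq2 or limma voom. At an unadjusted p below 0.05, edgeR counted 1 member (Adgre1), against 29.7% of all transcripts. The members' median log2 fold change was -0.29, beside -0.08 for all transcripts tested, and 8 of the 9 estimates were below 0. The D3M and ND groups did not overlap for 0 of the 9 members, against 6.26% of all transcripts tested.

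The summed CPM of the 3 C1q chains in ileum differed between stages mainly in its spread. ND rats lay close together at 425, 442, 452, 462, 472 and 474 CPM. D1M rats had 314, 329, 334, 515, 587 and 593 CPM, and D3M rats had 168, 284, 376, 429, 448 and 522 CPM. The coefficient of variation was 4.14% in ND, 30.1% in D1M and 34.3% in D3M ileum, and a difference in spread was not tested. The 3 low D1M libraries were those sequenced on flow cell 1, and the 2 lowest D3M libraries, from rats P780 and P762, were those on flow cell 3. Within flow cell 3, the 2 D3M libraries held 168 and 284 CPM and the 2 ND libraries 425 and 474 CPM. Within flow cell 1, the 4 D3M libraries held 376 to 522 CPM and the only ND library 452 CPM. Flow cell and rat cannot be told apart in these small sets. No member was called for a difference between flow cells in ileum (lowest FDR 0.463), where 4.93% of transcripts were. That test fits flow cell shifts shared by all stages, whereas the order here differed by stage. Summed C1q averaged 326 CPM on flow cell 1 and 554 CPM on flow cell 3 in D1M ileum, and 444 and 226 CPM in D3M ileum. The test thus cannot settle a flow cell difference that changes with stage.

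**Figure D1:**
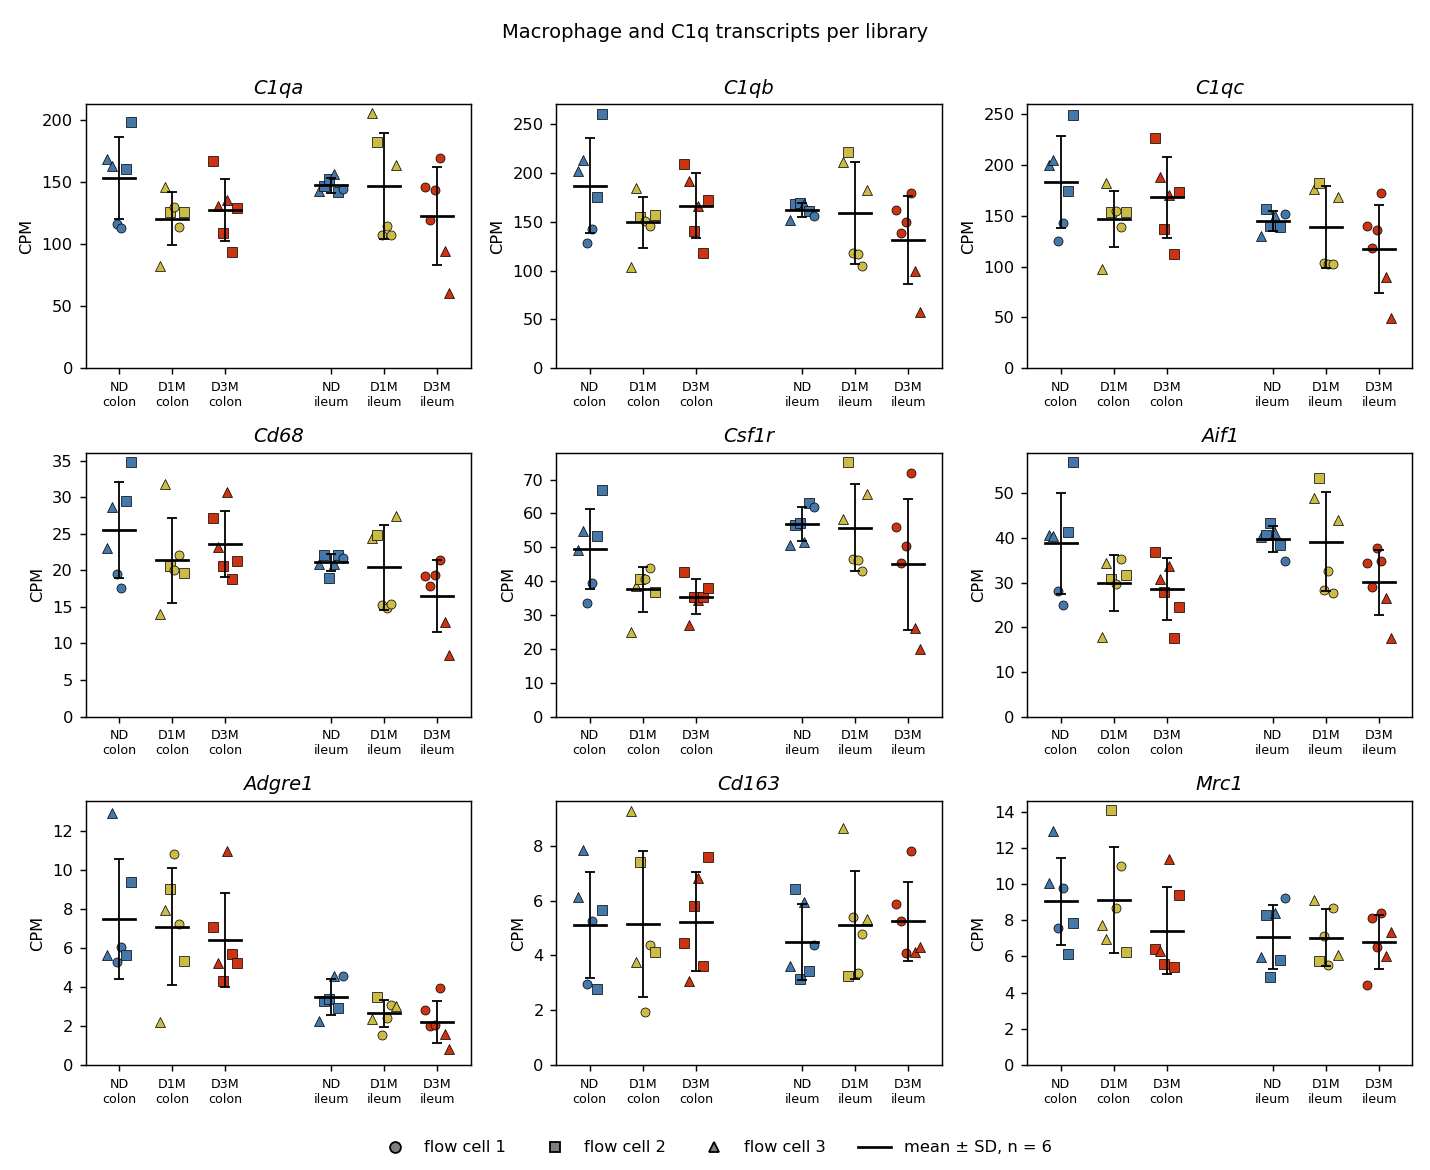
CPM of each member in every library (y axis, from 0) by tissue and stage (x axis), with symbols for the flow cell and bars for the mean ± SD of 6 rats. In ileum, the C1q chains, Cd68 and Aif1 of ND rats lie in a narrow band and the D1M and D3M rats spread to both sides or below it, while Adgre1 lies higher in nearly all colon libraries.

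C1qa averaged 122 ± 39.5 CPM in D3M ileum and 147 ± 5.85 CPM in ND ileum (SD, n = 6 each). Its log2 fold change was -0.25 (95% interval -0.84 to 0.34, FDR 0.572). C1qb averaged 131 ± 44.9 CPM in D3M and 162 ± 7.16 CPM in ND ileum (log2 fold change -0.23, interval -0.88 to 0.41, FDR 0.632). C1qc averaged 118 ± 43.1 CPM in D3M and 145 ± 9.76 CPM in ND ileum (log2 fold change -0.29, interval -0.94 to 0.35, FDR 0.542). The sign of these estimates was not stable. Without D3M rat P780 they were 0.042 for C1qa, 0.087 for C1qb and 0.022 for C1qc, and with all rats limma voom with quality weights gave 0.0059, 0.058 and 0.0059, none of them called.

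Csf1r, the growth factor receptor, had 19.98, 47.8 and 71.9 CPM as the lowest, median and highest library of D3M ileum, against 50.8, 56.8 and 63.2 CPM in ND ileum. The D3M libraries thus reached both below and above the ND range, and the log2 fold change was -0.40 (interval -1.002 to 0.21, FDR 0.371). Cd68 averaged 16.5 ± 4.92 CPM in D3M and 21.1 ± 1.19 CPM in ND ileum, with a log2 fold change of -0.34 (interval -0.90 to 0.21, FDR 0.395). Aif1 averaged 30.0 ± 7.33 CPM in D3M and 39.7 ± 2.92 CPM in ND ileum, with a log2 fold change of -0.29 (interval -0.76 to 0.19, FDR 0.413).

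Adgre1, the adhesion receptor, had the largest estimate of the 9 in ileum. It had 0.812, 1.59, 1.99, 2.05, 2.85 and 3.96 CPM in D3M ileum, against 2.26, 2.94, 3.26, 3.38, 4.57 and 4.57 CPM in ND ileum. The groups overlapped, although 4 of 6 D3M libraries lay below every ND library. The log2 fold change was -0.85 (interval -1.59 to -0.11, unadjusted p = 0.0262, edgeR FDR 0.114). Counts were low for this transcript, 13 to 91 per ileum library.

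Of the scavenger receptors, Cd163 had a small estimate that changed sign with the library left out. That of Mrc1 lay near the members' median of -0.29 and kept its sign in 30 of 30 settings. Cd163 averaged 5.25 ± 1.45 CPM in D3M and 4.49 ± 1.39 CPM in ND ileum, with a log2 fold change of 0.06 (interval -0.62 to 0.73, FDR 0.920). Mrc1 averaged 6.81 ± 1.48 CPM in D3M and 7.08 ± 1.77 CPM in ND ileum, with a log2 fold change of -0.27 (interval -0.74 to 0.19, FDR 0.419). The intervals of all members but Adgre1 thus held both a log2 fold change of 0 and values on both sides of it. Differences within those intervals were therefore not detectable with 6 rats a group.

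**Figure D2:**
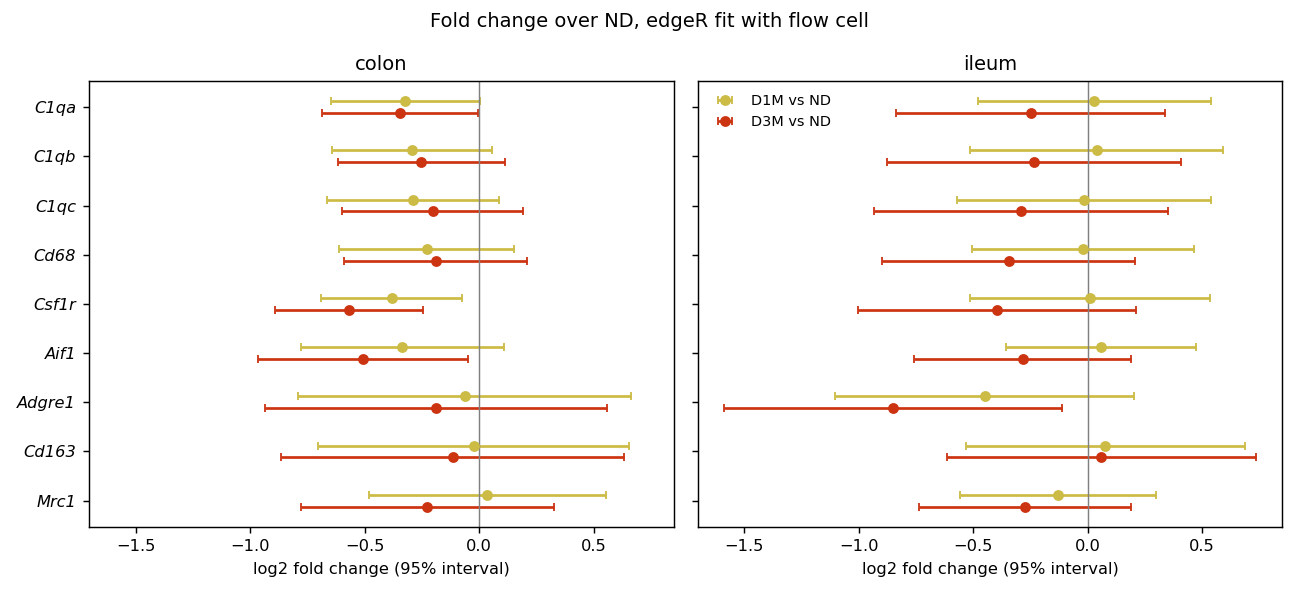
Log2 fold change over ND (x axis) for each member (y axis) in colon (left) and ileum (right), from the edgeR fit, with bars for the 95% interval. Estimates for D1M stand above those for D3M, most intervals include 0, and no member was called in any of the 4 comparisons drawn.

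The earlier stage was compared next. In ileum, D1M and ND rats differed in 0.0154% of 13026 transcripts and in none of the members, whose log2 fold changes ran over -0.45 for Adgre1 to 0.08 for Cd163 (lowest FDR 0.729, no member at an unadjusted p below 0.05). Between D3M and D1M rats, which were matched in age, 2.22% of ileal transcripts were called. All 9 members had an estimate below 0 in that comparison, over -0.41 to -0.02, but none was called (lowest FDR 0.368, lowest unadjusted p = 0.104 in the edgeR fit). DESeq2 and voom likewise called no member in either comparison.

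The levels of marker lists of other cell types in the same ileum libraries were as follows, with no test of a list. The summed CPM of 10 epithelial genes was 29826 to 40995 in D3M ileum and 20632 to 28891 in ND ileum, ranges that did not overlap, and that of 8 fibroblast genes had a median of 732 in D3M and 943 in ND ileum. Of the epithelial genes 4 were called higher and 1 lower in D3M, and of the fibroblast genes 1 higher and 3 lower. Summed B cell and follicle genes (21) had a median of 66.1 CPM in D3M and 468 CPM in ND ileum. The ND libraries held 67.0, 76.7, 90.7, 844, 1454 and 1693 CPM, so that no library lay near their median. D3M libraries ran from 58.7 to 605 CPM, and the median log2 fold change of the list was 0.05. Dendritic cell genes (13) had a median of 73.4 CPM in D3M and 120 CPM in ND, and T cell genes (13) 122 CPM in D3M and 150 CPM in ND. No gene of these 3 lists was called. Their part in the members' values was not tested.

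In colon, the question was the same, and only 0.0155% of 12906 transcripts were called between D3M and ND rats. The summed C1q chains had 325, 474 and 603 CPM as lowest, median and highest in D3M colon, 285, 435 and 513 CPM in D1M colon and 370, 541 and 709 CPM in ND colon, ranges that overlapped. No member was called, although all 9 estimates were below 0, with a median of -0.23 beside -0.01 for all transcripts tested. At an unadjusted p below 0.05 edgeR counted 3 members (Csf1r, Aif1 and C1qa), DESeq2 3 and voom 2, against 10% of all transcripts by edgeR.

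Csf1r was the member with the lowest p. It had 27.1, 34.6, 35.2, 35.4, 37.8 and 42.6 CPM in D3M colon, against 33.7, 39.5, 49.3, 53.4, 54.8 and 66.9 CPM in ND colon. Of the D3M libraries, 5 lay below all but 1 of the ND libraries, and the groups overlapped through ND rats K4038 and K4040, the 2 ND libraries of flow cell 1, which held no D3M library. Within flow cell 2 the D3M libraries had 35.2, 35.4, 37.8 and 42.6 CPM and the ND libraries 53.4 and 66.9 CPM, and within flow cell 3 the D3M libraries had 27.1 and 34.6 CPM and the ND libraries 49.3 and 54.8 CPM. Csf1r was thus lower in every D3M library than in every ND library of the same flow cell. The same held for Aif1, with 17.5 to 36.8 CPM in D3M and 41.2 and 57.1 CPM in ND on flow cell 2. On flow cell 3 Aif1 had 30.8 and 33.8 CPM in D3M and 40.4 and 40.6 CPM in ND. It did not hold for C1qa, whose highest D3M library on flow cell 2 had 167 CPM and whose lowest ND library there had 160 CPM. Over all 6 libraries a stage, both Csf1r and Aif1 overlapped between D3M and ND. The share of all transcripts with such a split was not computed, and the ND libraries of flow cell 1 do not enter it. The log2 fold change of Csf1r was -0.57 (interval -0.89 to -0.25, unadjusted p = 0.00174, edgeR FDR 0.272). When only the D3M and ND libraries entered the fit, it was -0.71 with an FDR of 0.0121, in a fit that called 315 of 12619 transcripts in place of 2 of 12906. This was the only setting in which a member passed the threshold in a comparison of stages. D1M colon had 24.9, 39.6 and 43.8 CPM as lowest, median and highest, and a log2 fold change over ND of -0.38 (interval -0.69 to -0.07, unadjusted p = 0.0184, edgeR FDR 0.952).

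Aif1 had 17.5, 29.3 and 36.8 CPM as lowest, median and highest in D3M colon, against 24.9, 40.5 and 57.1 CPM in ND colon, with an estimate of -0.51 on the log2 scale (interval -0.97 to -0.05, FDR 0.449). C1qa had 93.6, 130 and 167 CPM in D3M colon, against 113, 162 and 199 CPM in ND colon, with an estimate of -0.34 on the log2 scale (interval -0.68 to -0.004, FDR 0.492). C1qb (-0.25, interval -0.62 to 0.11) and C1qc (-0.20, interval -0.60 to 0.19) had smaller log2 fold changes, with FDR 0.634 and 0.735. The log2 fold changes of Cd68 (-0.19, interval -0.59 to 0.21), Mrc1 (-0.23, interval -0.78 to 0.33), Adgre1 (-0.19, interval -0.94 to 0.56) and Cd163 (-0.12, interval -0.86 to 0.63) had FDR between 0.756 and 0.937.

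No transcript was called by edgeR between D1M and ND colon or between D3M and D1M colon (0% of 12906 in each), with 602 and 682 transcripts at an unadjusted p below 0.05. DESeq2 called 11 transcripts in the D1M comparison and 1 in that of D3M with D1M, and voom 0 in both. No member was called by any of the 3 tools. The members' log2 fold changes ran over -0.38 to 0.04 between D1M and ND colon and over -0.26 to 0.09 between D3M and D1M colon. Flow cells differed in 11.8% of colon transcripts and in no member (lowest FDR 0.314).

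Summed mast cell genes (7) in colon had a median of 299 CPM in D3M and 562 CPM in ND, and summed fibroblast genes a median of 797 CPM in D3M and 1338 CPM in ND. The only transcripts called between D3M and ND colon were the fibroblast collagens Col1a1 (-0.999 ± 0.142 SE, FDR 0.0317) and Col3a1 (-0.957 ± 0.145, FDR 0.0345). Whether these bear on the lower Csf1r estimate was not tested.

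Whether a stage acted differently on the members in ileum than in colon was tested as an interaction over all 36 libraries, with the difference written as ileum minus colon. No member was called for a difference in its response to D3M over ND, where 1.56% of 13697 transcripts were (214). With the rat as block, which pairs the 2 tissues, 0 transcripts and no member were called. The largest difference was that of Adgre1 (-0.62, interval -1.67 to 0.42, FDR 0.597), and those of the C1q chains were 0.13, 0.06 and -0.05. For D1M over ND and for D3M over D1M the tests called 0% of transcripts (775 and 1138 at an unadjusted p below 0.05). DESeq2 called 21 and 19 transcripts there and voom 0 and 5, with no member among them.

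The colon and the ileum of the same rats were compared next, over all 36 libraries, with no rat block in the main fit. Of 13697 transcripts, 73.2% were called between colon and ileum, 38.7% higher and 34.5% lower in colon. Of the 9 members, edgeR called 3, Adgre1 and Mrc1 higher and Csf1r lower in colon, and DESeq2 and voom called 4, with Aif1 also lower.

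Adgre1 had 2.23, 5.86 and 12.9 CPM as lowest, median and highest of 18 colon libraries, against 0.812, 2.89 and 4.57 CPM in ileum. It was higher in colon in 17 of 18 rats, the exception being D1M rat K3978. The log2 fold change was 1.37 (interval 0.98 to 1.77, edgeR FDR 1.28e-07), that is 2.59-fold. Mrc1 had 5.42, 7.81 and 14.1 CPM in colon, against 4.41, 6.84 and 9.24 CPM in ileum, and was higher in colon in 13 of 18 rats (log2 fold change 0.34, interval 0.09 to 0.60, FDR 0.0150). Csf1r had 24.9, 39.1 and 66.9 CPM in colon, against 19.98, 53.9 and 75.2 CPM in ileum, and was lower in colon in 14 of 18 rats (log2 fold change -0.39, interval -0.63 to -0.15, FDR 0.00397). The ranges of Mrc1 and Csf1r overlapped widely between the organs.

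Cd68, the lysosomal marker, was not called, with a median of 21.7 CPM in colon and 20.1 CPM in ileum (log2 fold change 0.23, interval -0.01 to 0.48, FDR 0.0805). It was higher in colon in 15 of 18 rats, and was called in 5 of 29 settings: upper quartile scaling, no flow cell term, the B cell score as covariate, and without D1M rat K3978 or K3990 (lowest FDR 0.0274). Aif1 had a median of 31.2 CPM in colon and 36.3 CPM in ileum (log2 fold change -0.22, interval -0.46 to 0.02, FDR 0.0942). It was also called in 5 of 29 settings: RLE factors (FDR 0.0435), DESeq2 (-0.26, FDR 0.0372), voom (-0.27, FDR 0.0274), and without ND rat K4048 or D3M rat P780. Cd163 had a median of 4.86 CPM in colon and 4.57 CPM in ileum (0.03, interval -0.34 to 0.40, FDR 0.871).

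**Figure D3:**
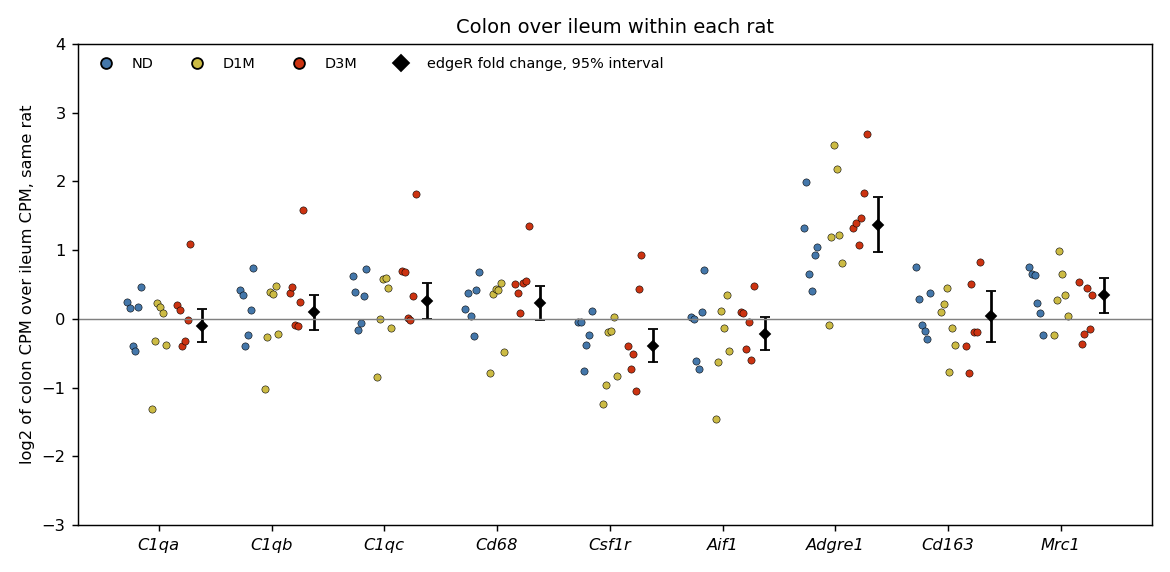
Log2 of colon CPM over ileum CPM of the same rat (y axis) for each member (x axis), points coloured by stage, beside the edgeR fold change with its 95% interval (diamond). Adgre1 lies above 0 in 17 of 18 rats, Cd68 in 15, and Mrc1 and C1qc in 13 each, and Csf1r lies below 0 in 14. The other members scatter on both sides of 0.

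The estimates of the C1q chains between the organs were spread around 0. C1qa had a log2 fold change of -0.10 (interval -0.33 to 0.14, FDR 0.451), C1qb of 0.09 (interval -0.16 to 0.35, FDR 0.513) and C1qc of 0.26 (interval -0.003 to 0.53, FDR 0.0695), and none was called. C1qc was called higher in colon in 4 of 29 settings: upper quartile scaling (FDR 0.0352), no flow cell term (FDR 0.0239), and without D1M rat K3978 (FDR 0.0237) or K3990 (FDR 0.0474). Because these chains rise and fall together between libraries, the ratio of their read counts within a library varies far less than their levels. The ratios were compared after the values had been seen, for all 3 pairs of chains. The read count of C1qc over that of C1qa had a median of 1.24 in colon (range 1.08 to 1.44), against 0.959 in ileum (range 0.814 to 1.07), and was higher in colon in 18 of 18 rats. The mean log2 difference of the ratio, colon over ileum, was 0.37 ± 0.13 (SD, n = 18 rats, paired permutation test, two-sided, adjusted p = 6.0e-05 over 3 ratios).

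C1qb over C1qa had a median of 1.26 in colon and 1.08 in ileum (mean log2 difference 0.21 ± 0.13, higher in colon in 16 of 18 rats, adjusted p = 8.0e-05 in the same permutation test). C1qc over C1qb had a median of 0.987 in colon and 0.874 in ileum (0.16 ± 0.10, higher in 16 of 18 rats, adjusted p = 6.0e-05). Within each flow cell the C1qc over C1qa ranges of the organs were apart: 1.08 to 1.26 in colon and 0.889 to 1.05 in ileum on flow cell 1, 1.09 to 1.35 and 0.919 to 1.07 on flow cell 2, and 1.19 to 1.44 and 0.814 to 1.03 on flow cell 3. The medians of this ratio by stage, given with no test, were 1.22, 1.22 and 1.303 in ND, D1M and D3M colon and 0.968, 0.960 and 0.953 in ND, D1M and D3M ileum. The counts were not scaled by transcript length, so the ratios do not give the relative abundance of the chains within an organ.

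**Figure D4:**
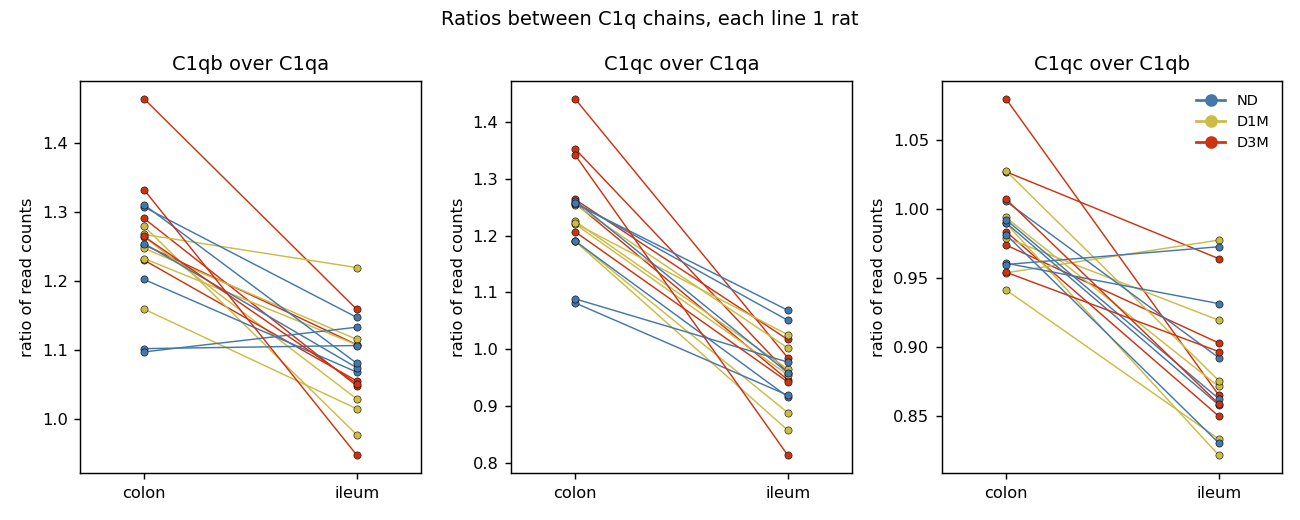
Ratio of read counts between C1q chains (y axis) in colon and ileum (x axis), each line joining the libraries of 1 rat, coloured by stage. The C1qc over C1qa lines all fall towards ileum, and 16 of 18 do so for each of the other ratios.

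Across libraries C1qa, C1qb, C1qc, Cd68, Csf1r and Aif1 were related to each other. Their 15 pairs had a Pearson r of log2 CPM of 0.64 to 0.99 over 18 colon libraries and of 0.85 to 0.99 over 18 ileum libraries, with Spearman rho of 0.51 to 0.99 and 0.78 to 0.97. By Pearson r, all 30 of these pairs passed a permutation test adjusted over the 72 pairs computed (highest adjusted p = 0.00736 in colon and 0.000144 in ileum). By Spearman rho, Csf1r and Cd68 in colon did not pass (adjusted permutation p = 0.0619), and the other pairs did. The C1q chains were the closest, at 0.96 to 0.99 in colon and 0.98 to 0.99 in ileum. C1qa and Cd68, for example, had an r of 0.85 (rho 0.84, permutation p = 2.0e-05 for each) in colon and of 0.95 in ileum (rho 0.82, permutation p = 1e-05, the smallest that the resamples allow, and 7.0e-05). Without the 2 libraries farthest from the median of 1 gene of the pair, here Cd68, these were 0.72 and 0.87.

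Within flow cells of at least 6 libraries the same pair had an r of 0.93 on flow cell 2 and 0.80 on flow cell 3 in colon, and of 0.92 on flow cell 1 and 0.97 on flow cell 3 in ileum. The other flow cell of each tissue held 4 libraries, too few for a value. After stage and flow cell means were removed, the 15 pairs stayed between 0.75 and 0.99 in colon and between 0.90 and 0.99 in ileum. Csf1r and Cd68 were the loosest pair in colon (r = 0.64, rho = 0.51, permutation p = 0.00378 and 0.0344), and their r was 0.34 without the 2 farthest libraries. The other pairs of Csf1r in colon fell likewise, to 0.37 with C1qc, 0.40 with C1qb and 0.58 with both C1qa and Aif1. Leaving out the extremes of 1 gene narrows its range and by itself tends to lower r. How far these relations rest on the extreme libraries was thus not settled. Within flow cells the r of Csf1r and Cd68 was 0.95 on flow cell 2 and 0.58 on flow cell 3, and 0.78 after stage and flow cell means were removed.

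Adgre1 followed this set less closely, with r of 0.57 to 0.66 in colon and 0.70 to 0.82 in ileum (highest adjusted permutation p = 0.0224 and 0.00430). Its Spearman rho with the set was 0.41 to 0.59 in colon and 0.55 to 0.69 in ileum. By rho, the colon pair with Csf1r passed (adjusted permutation p = 0.0220) and the other colon pairs did not (0.0683 to 0.148). All ileum pairs passed by rho (highest adjusted permutation p = 0.0376). Without the 2 farthest libraries the values of r were 0.27 to 0.64 in colon and 0.43 to 0.59 in ileum. The pair of Adgre1 and Aif1 in colon rose from 0.59 to 0.64. After stage and flow cell means were removed, the pairs stood at 0.65 to 0.79 in colon and 0.71 to 0.81 in ileum. How far the relation in colon rests on the extreme libraries was not settled by leaving them out. For Cd163 and Mrc1 no such relation was detected before stage and flow cell means were removed. Their 12 pairs with the set had r between -0.07 and 0.27 in colon and between -0.15 and 0.28 in ileum. None passed the adjusted permutation test (lowest adjusted p = 0.431 and 0.411). After the means were removed, these pairs ran over -0.32 to 0.40 in colon and -0.11 to 0.50 in ileum, with no test. Cd163 then had r of 0.48, 0.46 and 0.50 with C1qa, C1qb and C1qc in ileum, and of -0.30, -0.20 and -0.21 in colon. Cd163 and Mrc1 were related to each other in ileum (r = 0.59, rho = 0.64, permutation p = 0.0111 and 0.00512, adjusted p = 0.0191), with an r of 0.46 without the 2 farthest libraries. In colon the pair had an r of 0.50 and a rho of 0.55 (permutation p = 0.0339 and 0.0185, adjusted p = 0.0543 for r), and an r of 0.71 without the 2 farthest. Within the flow cells of at least 6 libraries, the r of Cd163 and Mrc1 was 0.73 on flow cell 2 and 0.68 on flow cell 3 in colon, and 0.17 on flow cell 1 and 0.82 on flow cell 3 in ileum. Mrc1 was also related to Adgre1 in colon at the edge of the threshold (r = 0.51, rho = 0.58, adjusted permutation p = 0.0499), with an r of 0.34 without the 2 farthest libraries.

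**Figure D5:**
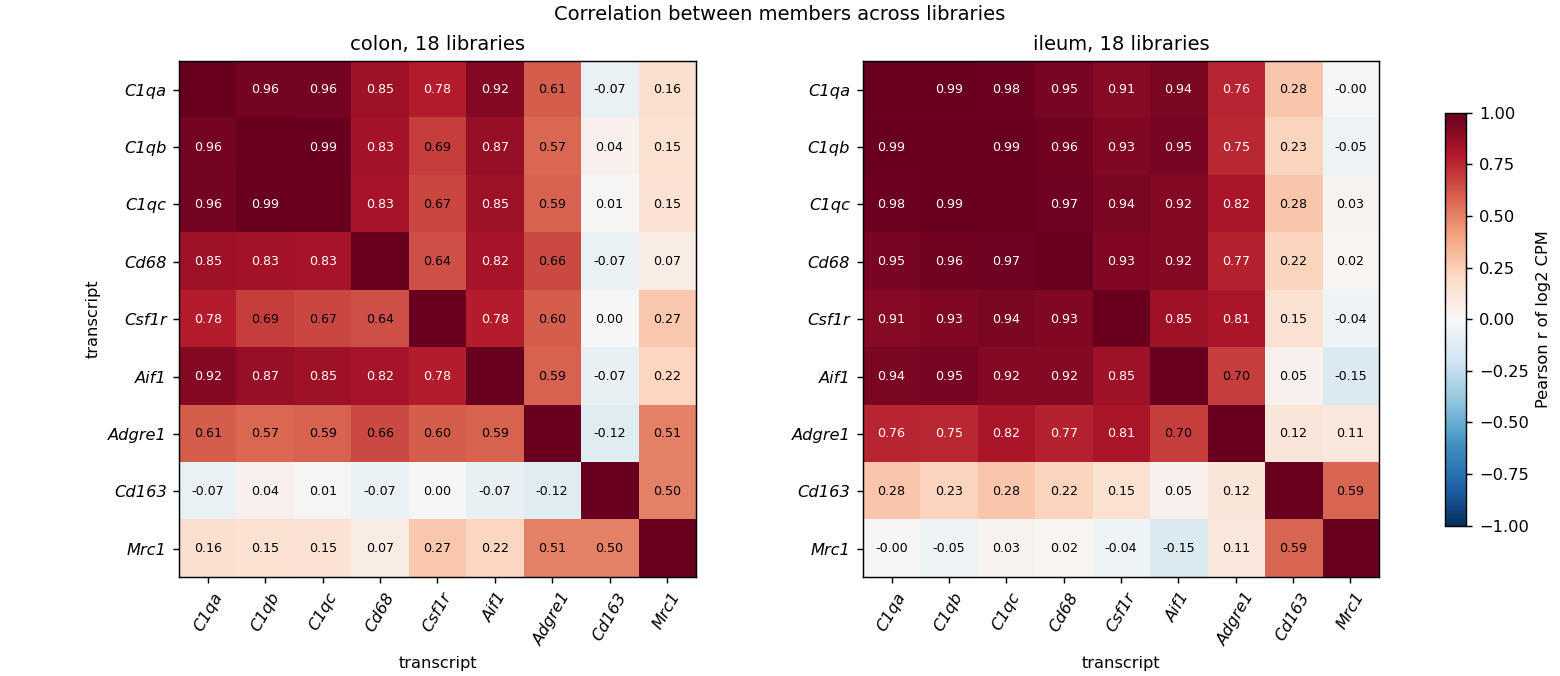
Pearson r of log2 CPM between each pair of members (both axes) over 18 colon libraries (left) and 18 ileum libraries (right), on a colour scale from -1 to 1. The C1q chains, Cd68, Csf1r and Aif1 form a block at 0.64 or more in colon and 0.85 or more in ileum, and the rows of Cd163 and Mrc1 lie between -0.15 and 0.28 against that block.

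Between the ileum and the colon of the same rat, Cd163 was the 1 member of 9 whose levels passed the adjusted test: Pearson r = 0.65 and Spearman rho = 0.65 over 18 rats (permutation p = 0.00381 and 0.00462, adjusted p = 0.0343), 0.50 without the 2 farthest rats and 0.66 after stage means were removed. Mrc1 had an r of 0.44 (rho 0.42, permutation p = 0.0649 and 0.0852, adjusted p = 0.292) and Adgre1 an r of 0.31 (rho 0.46, permutation p = 0.212 and 0.0545, adjusted p = 0.637), and whether these differ from Cd163 was not tested. For the C1q chains r was 0.05 to 0.08. A relation between the C1q levels of the segments was thus not detectable with 18 rats.

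The levels of members in libraries with and without follicle genes are given with no test. In ileum, the 6 libraries with a B cell score over 3 had 4.41, 5.76 and 6.07 CPM of Mrc1 as lowest, median and highest, and the 12 others 5.52, 8.19 and 9.24 CPM. In colon the 5 follicle-rich libraries had 5.42, 6.12 and 11.0 CPM of Mrc1 and the 13 others 6.22, 8.69 and 14.1 CPM. Cd163 also had a lower median in follicle-rich ileum (3.53 against 5.02 CPM). The other members had a higher median there, such as Csf1r (60.2 against 48.4 CPM), Aif1 (41.7 against 33.6 CPM) and C1qa (149 against 132 CPM). In colon the medians of Csf1r, Cd68 and Aif1 were higher in follicle-rich libraries, and those of the other members lower. With the B cell score as a covariate, no member was called in any comparison of stages.

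The transcripts most like the C1q chains were ranked in each tissue by Pearson r over 18 libraries after stage and flow cell means were removed, as a description with no test. In colon, 10904 transcripts whose log2 CPM averaged 1 or more were ranked, and the leading 8 were Sfrp1 (r = 0.93), Cpa3 (0.90), Tead4 (0.88), Tifab (0.87), Slamf9 (0.87), Fcgr3a (0.86), Cpz (0.86) and Hpgds (0.86). Cpa3 encodes the carboxypeptidase of mast cells, Fcgr3a an IgG receptor of phagocytes, and Sfrp1 a secreted WNT inhibitor of the stroma. In ileum, of 10944 transcripts, they were Fcer1g (0.98), Dnase1l3 (0.97), Slamf8 (0.95), Acp5 (0.94), Gm2a (0.94), C1r (0.93), Ifitm1 (0.93) and C1s (0.93). Fcer1g is the signalling chain of Fc receptors, Dnase1l3 a DNase secreted by macrophages and dendritic cells, and C1r and C1s are the proteases that join C1q in the C1 complex.

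For the mean of Cd163 and Mrc1 the leading 8 in colon were Clec3b (0.89), Lyve1 (0.86), Gprc5b (0.85), Ccdc80 (0.85), Efemp1 (0.84), Jam3 (0.84), F13a1 (0.84) and Mgp (0.82). Lyve1 marks lymphatic endothelium and a class of resident macrophages, F13a1 encodes a coagulation factor chain made by macrophages, and Efemp1 and Mgp encode matrix proteins. In ileum they were Cdr2l (0.87), Fzd4 (0.84), Col12a1 (0.83), Mpp3 (0.83), Adgrg3 (0.82), Kank3 (0.82), Fstl1 (0.81) and Cadm3 (0.80).

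Other genes of macrophages and complement were called between D3M and ND ileum at about the share of all transcripts there (12.5%). Between D3M and ND ileum, where 8.31% of transcripts were called higher and 4.22% lower in D3M, 3 of 41 further macrophage genes rose and 2 fell (median log2 fold change -0.35, all transcripts -0.08). Lgmn, a lysosomal protease also made by epithelium, averaged 111 ± 20.9 CPM in D3M and 64.7 ± 7.31 CPM in ND ileum (log2 fold change 0.83 ± 0.17 SE, FDR 0.00650). Mertk, a receptor for engulfing dying cells, rose by 0.91 ± 0.25 (FDR 0.0262) and was also higher in D3M than in D1M ileum (0.94 ± 0.21, FDR 0.0364), the only further macrophage gene called there. Cd14, the lipopolysaccharide co-receptor, had a log2 fold change of -0.68 ± 0.18 (FDR 0.0212).

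Of 18 further complement genes, Cd59, a widely expressed inhibitor of the membrane attack complex, was higher in D3M ileum (1.04 ± 0.24, FDR 0.0134) and Vtn, the plasma inhibitor vitronectin, lower (-1.15 ± 0.34, FDR 0.0387), with a list median of -0.48. Of 9 complement receptors and C1q-binding proteins, Lrp1, a large endocytic receptor of fibroblasts and macrophages, was lower (-0.62 ± 0.10, FDR 0.00245). Of 16 genes of the CSF1 and monocyte recruitment axis, Csf1, the ligand of Csf1r, was lower, averaging 8.31 ± 1.70 CPM in D3M ileum and 12.0 ± 1.18 CPM in ND ileum (-0.60 ± 0.16, FDR 0.0247), and Klf4, a transcription factor of monocytes and of differentiated epithelium, was higher (0.54 ± 0.17, FDR 0.0448). None of 13 cytokine and activation genes was called in ileum. In colon, and between D1M and ND ileum, no gene of these 5 lists was called, and their medians between D3M and ND colon were -0.14 to -0.32.

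Between colon and ileum, 21 of 43 further macrophage genes were higher and 10 lower in colon, and 12 were not called, beside 38.7% higher and 34.5% lower among all transcripts. Cd14 averaged 132 ± 23.1 CPM in colon and 23.4 ± 5.97 CPM in ileum (log2 fold change 2.47 ± 0.11, FDR 1.35e-19). Maf, a transcription factor also expressed outside macrophages, was lower in colon (-4.85 ± 0.37), and the highest Maf level of any colon library, 11.1 CPM, lay in the ND group, which holds the colon library with ileal RNA. Of 16 genes of the CSF1 axis, 7 were higher, 6 lower and 3 not called, against the same 38.7% and 34.5%. Il34, the other ligand of Csf1r, averaged 56.8 ± 13.3 CPM in colon and 14.7 ± 4.05 CPM in ileum (1.93 ± 0.13, FDR 2.77e-15), and Csf1 had a log2 fold change of 0.43 ± 0.09. Both ligands were thus higher in the segment with the lower level of their receptor.

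Of 19 complement genes, 6 were higher in colon, led by Fcna, a ficolin of the lectin pathway (1.84 ± 0.10), and 4 lower, led by Cfi (-5.03 ± 0.44) and C3 (-3.49 ± 0.41). C3 had a wide range in D3M ileum, 35.4 to 318 CPM, beside 23.0 to 35.4 CPM in ND ileum. Of 9 complement receptors 4 were higher and 2 lower in colon, and of 13 cytokine genes 3 were higher and 3 lower, against 38.7% higher and 34.5% lower among all transcripts.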

How the data were processed

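Whole-wall sections of distal ileum and proximal colon from 18 male UCD-T2DM rats gave 36 stranded polyA mRNA libraries in 3 batches. These are called flow cells here after the prefix F1, F2 or F3 of the library names, and the paper speaks of runs. The deposited table holds raw counts per gene, which the authors made by aligning reads to rn6 with STAR and counting in SeqMonk. The strand setting of the counting and the STAR version are not given in the sources used here. A further 36 columns of the table were not used.

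Counts were filtered with filterByExpr, scaled by TMM and tested with edgeR 4.0.16 (legacy quasi-likelihood, flow cell as covariate, all 3 stages in 1 fit per tissue, both tissues together for the tissue and interaction tests), in R 4.3.3 with limma 3.58.1 and DESeq2 1.42.0 as alternatives. A call is a Benjamini-Hochberg FDR below 0.05 over all transcripts tested. Intervals are 95%. CPM are scaled by TMM over all 36 libraries, and log2 CPM used a prior count of 2. Scripts were tested on simulated data. Stage groups come from the labels, and p-values of tests within a tissue measure the spread between rats. The main tissue and interaction fits took the 36 libraries as independent, with no rat block. Their p-values and intervals thus do not use the pairing.

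Ileum and colon of a rat share its identifier in the labels, which pairs them. The correlation of their deviations from the stage means ran over -0.56 to 0.77 (median -0.02, above 0.1 in 7 of 18 rats). Named genes are all members, at most 4 called genes per list and comparison by p, and the 8 most alike transcripts per tissue. The members and lists (271 symbols, 251 matched) were chosen with earlier results of these data known. Some genes that this rule names are not reported here.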

Additional observations from a re-analysis of the deposited data

Results flagged for a closer look

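The colon library of D1M rat K3978 stood apart from the other 5 D1M colon libraries for 2 members. Aif1 was at 17.8 CPM there and at 29.6 to 35.3 CPM in the others, and Csf1r was at 24.9 CPM there and at 36.8 to 43.8 CPM in the others. In both cases the gap to the nearest library, 0.672 of the group's range for Aif1 and 0.628 for Csf1r, exceeded Dixon's 95% critical value for 6 samples. These were 2 of 54 groups of 6 libraries examined, and chance gives about 1 in 20. The same library had the lowest summed C1q of all colon libraries, 285 CPM.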

How the results depend on the processing

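No member was called between stages, for a difference between tissues in the response to a stage, or between flow cells under any alternative but 1: Csf1r between D3M and ND colon when only those groups were fitted (-0.71, FDR 0.0121, 1 member called). Adgre1, Mrc1 and Csf1r were called between colon and ileum in all 29 settings. The count of members called there was 5 with upper quartile scaling and without the flow cell term, and 3 to 5 with 1 rat left out (5 without D1M K3978 or D1M K3990), Cd68 and C1qc being the members gained in each case. It was 4 with Aif1 by RLE factors, DESeq2 and voom and without ND K4048 or D3M P780, and 4 with Cd68 under the B cell score.

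With the rat as replicate block, the pairing of the 2 tissues, the calls between colon and ileum were again 3 members, Cd163 was at -0.0031, and 0 transcripts were called for the difference in D3M over ND. The block changed no call of a member. Uncalled log2 fold changes near 0 changed sign as follows. Between D3M and ND ileum, voom gave 0.0059 for C1qa, 0.058 for C1qb and 0.0059 for C1qc. With 1 rat left out, the range was -0.33 to 0.042 for C1qa, -0.34 to 0.087 for C1qb, -0.39 to 0.022 for C1qc (highest without P780) and -0.083 to 0.21 for Cd163 (below 0 without ND K4028, ND K4048, D1M K3988 or D3M K3980). Between D3M and ND colon, Cd163 was 0.031 without the flow cell term, and without flow cell 2 Cd68 was 0.16 and Adgre1 0.15. With 1 rat left out Adgre1 ran -0.45 to 0.079 and Cd163 -0.36 to 0.085 there (highest without ND K4037 and D3M K3961). Between colon and ileum, Cd163 was -0.0035 with RLE factors, -0.0036 with DESeq2, -0.036 with voom and -0.030 with the B cell score, and with 1 rat left out it ran -0.056 to 0.10 (lowest without P780, also below 0 without K4028) and C1qb -0.0021 to 0.16 (lowest without P780).

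Counts of transcripts called moved more. Between D3M and ND ileum (1632) they were 3007 without the flow cell term, 1024 without the libraries with RNA of the other tissue, 561 without flow cell 2, 185 with only those 2 groups, and 675 to 2437 with 1 rat left out. Between D1M and ND ileum (2) they were 44 by DESeq2, 1 by voom, 1 without the mixed libraries, 0 without flow cell 2 and 1 to 3 with 1 rat left out. Between D3M and D1M ileum (289) they were 189 unfiltered, 989 by DESeq2, 787 by voom, 130 without flow cell 2 and 6 to 761 with 1 rat left out (6 without K3989, 761 without K3959). Between D3M and ND colon (2) they were 72 by DESeq2, 8 by voom, 0 without the flow cell term, 4 without the mixed library, 0 without flow cell 2, 315 with only those 2 groups, 0 to 10 with 1 rat left out and 4 without K4028 and with the B cell score, a setting chosen after seeing the data. DESeq2 gave 11 for D1M and ND colon, 1 for D3M and D1M colon (0 to 2 with 1 rat left out), 1433 for flow cells in ileum and 2415 in colon. For the difference between tissues in D3M over ND (214) they were 133 unfiltered, 113 at 1 CPM or more in 6 libraries, 514 by DESeq2, 336 by voom, 761 without the flow cell term, 37 without the mixed libraries and 24 to 981 with 1 rat left out. In D1M over ND (0) they were 21 by DESeq2, 3 with the B cell score, 1 without the mixed libraries and 0 to 24 with 1 rat left out. In D3M over D1M (0) they were 19 by DESeq2, 5 by voom, 1 by the edgeR 4 method, 2 with the B cell score and 0 to 4 with 1 rat left out. Beyond fewer samples or transcripts in a fit, the cause was not tested. Adgre1 and Cd163 had 13 to 241 and 30 to 152 counts per library, which limits their precision.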
